A study of Arabidopsis thaliana with 2 samples.

Results

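Of the 2931 peaks of the transcription factor MYB3R3 in Arabidopsis seedlings, 629 lay deep inside genes. A peak was counted as deep when its midpoint fell within a protein-coding gene of nuclear chromosomes 1 to 5 and more than 200 bp from the closest end of any protein-coding gene. These 629 peaks made up 21.5% of the list (95% Wilson interval 20 to 23%, counting error only). Of the remaining peaks, 992 had their midpoint inside a gene but at most 200 bp from a gene end, 905 were outside genes and at most 500 bp from an end, and 405 were further away. The choice used position alone, so score, width, spacing and gene identity were not used by it.

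The plants were Col-0 seedlings expressing MYB3R3 fused to green fluorescent protein (GFP), harvested whole 9 days after germination without treatment, after growth in liquid MS medium with sucrose under continuous light. Immunoprecipitation with an anti-GFP antibody gave 1 ChIP library, and 1 library of input DNA came from the same line and was not analysed here. The sources used here give neither the promoter that drives the fusion nor the number of plant lines, and the labels name no control plants without GFP. With 1 ChIP library and 1 list of peaks there was no replicate error, so all values below describe this list and none was tested.

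MYB3R proteins are MYB transcription factors that act on genes of the plant cell cycle. MYB3R3 is known as a repressor that keeps mitotic genes off outside their window of expression, as part of plant complexes related to the animal DREAM complex. The sites described for MYB3R factors are short elements in promoters. The peaks described here have their midpoint inside a gene, and their place relative to promoters was not determined. Neither strand nor exons nor sequence entered the assignment of peaks, so a gene end may be a start or a stop of transcription and peaks are not placed in exons, introns or untranslated regions.

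Most deep peaks were not far past the 200 bp limit. Their median distance to the closest gene end was 423.5 bp, with quartiles of 287.5 and 771 bp, and 369 of the 629 (58.7%) lay at most 500 bp from an end. Only 96 (15.3%) lay more than 1000 bp from every gene end, and 8 more than 2000 bp. Set against the amount of gene sequence at each depth, the density of peaks fell from 111 per Mb in the first 100 bp to 33.7 per Mb at 200 to 300 bp. It was 9.34 per Mb at 500 to 750 bp and 1.58 per Mb beyond 2000 bp. Peaks with a score of 30 or more became sparse faster than weak ones: from the first 100 bp to the 500 to 750 bp interval their density went from 37.2 to 1.16 per Mb, while that of peaks with a score under 15 went from 36.7 to 4.91 per Mb. The score is a number that the authors deposited for each peak, whose formula the sources used here do not give; higher values rank a peak higher within this list.

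**Figure D1:**
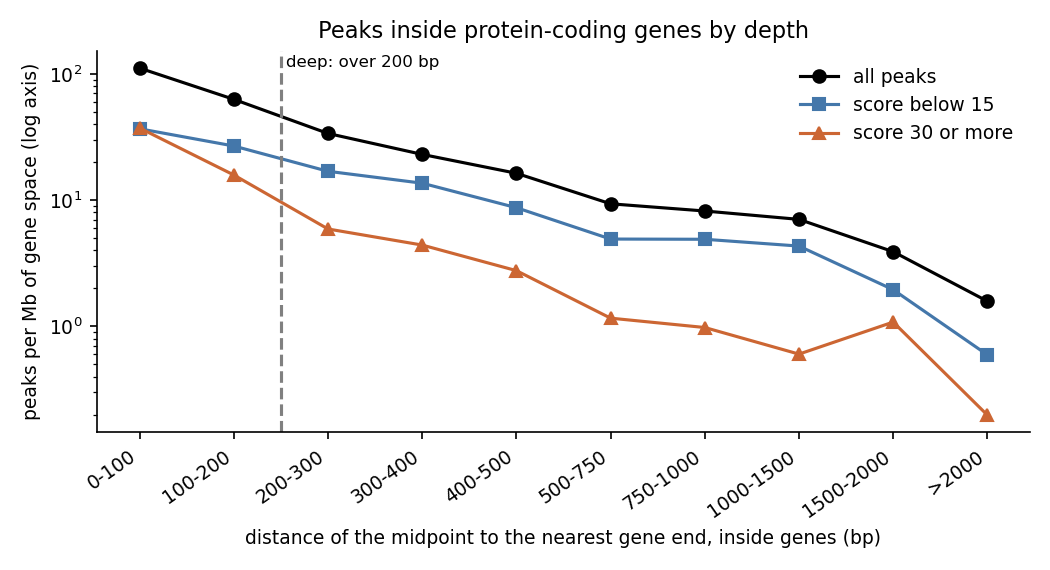
Density of peak midpoints inside protein-coding genes (peaks per Mb of gene sequence, log axis) by distance to the closest gene end in bp, for all peaks, peaks with a score under 15 and peaks with a score of 30 or more. The dashed line marks the 200 bp limit; the density of all peaks goes from 111 per Mb in the first 100 bp to 1.58 per Mb beyond 2000 bp, and the last 2 intervals hold 18 and 8 peaks.

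Within their gene, 284 deep peaks (45.2%) had the midpoint between 25% and 75% of the gene's length, a stretch that holds 60.2% of the gene sequence that lies deep by the same limit. For 61 peaks the closest gene end belonged to another, overlapping gene, and 7 midpoints lay in 2 genes at once. The whole peak, not only its midpoint, was more than 200 bp from all gene ends in 370 cases, and 18 peaks reached over a gene end. At 23 midpoints the annotation also held a non-coding gene, 20 of them genes for long non-coding RNAs. The chromosomes were alike in the share of their peaks that was deep, from 19.3% on chromosome 4 (83 of 429) to 23.3% on chromosome 2 (96 of 412).

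Deep peaks scored lower than the peaks at gene ends. Their median score was 14.2, with quartiles of 10.7 and 22.3, and scores ran from 4.13 to 338.5. Peaks inside genes at an end had a median of 18.5, peaks outside genes near an end 18.6, and peaks further from genes 17. A score of 70 or more was reached by 30 deep peaks (4.77%, 95% Wilson interval 3.36 to 6.73%), against 9.04% of all peaks, 12.4% of those inside genes at an end and 4.94% of those far from genes. At the other extreme, 344 deep peaks (54.7%) scored under 15, against 40.6% of all peaks. The deep share of each score class went from 30.6% of the 421 peaks under 10 and 27.9% of the 770 from 10 to 15 to 17.9% of the 560 from 15 to 20. It was 17.6% of the 296 from 30 to 50 and 11.3% of the 265 at 70 or more. High and low deep peaks also differed in place: 23 of the 30 with a score of 70 or more (76.7%) were at most 500 bp from a gene end, against 198 of the 344 under 15 (57.6%).

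**Figure D2:**
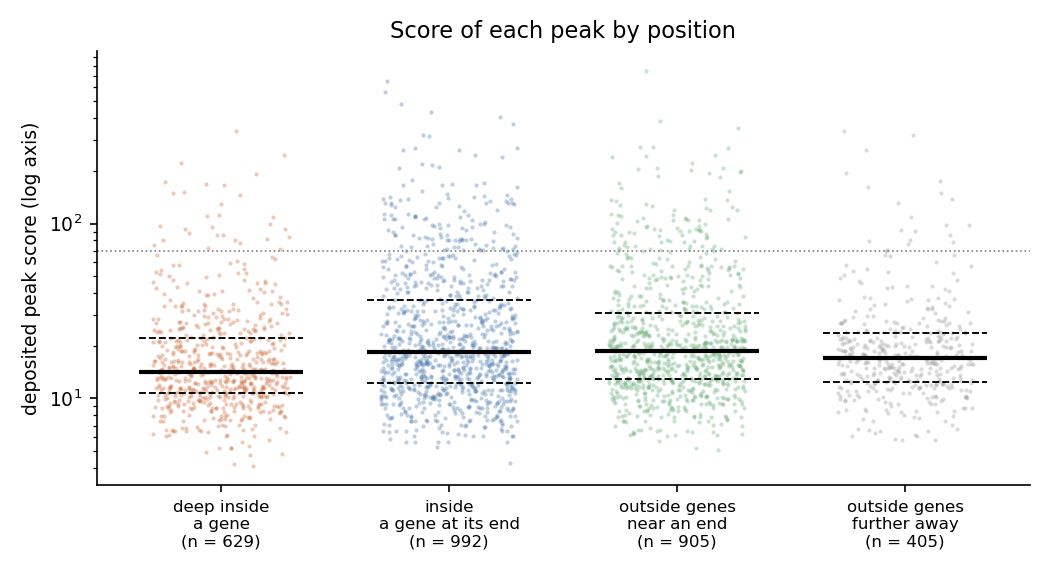
Deposited score of each peak (log axis) for peaks deep inside a gene, inside a gene at its end, outside genes within 500 bp of an end, and further away. Solid lines are medians, dashed lines quartiles, and the dotted line a score of 70; the deep peaks have the lowest median (14.2) and still reach 338.5.

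The highest deep peak lay in AT5G45700 on chromosome 5 (18537103 to 18538190, TAIR10). It scored 338.5, rank 10 of all 2931 peaks. At 1088 bp wide it reached over an end of the 1180 bp gene and covered 80.7% of it. JASON, a gene needed for the orientation of the spindles in male meiosis, held the next, with a score of 246.2 (chromosome 1, 2039916 to 2040480). Its midpoint was 211.5 bp from an end of the overlapping gene AT1G06670 and 221.5 bp from the closer end of JASON. The third was in MCM7, a subunit of the replicative helicase, at 222.1 (chromosome 4, 901090 to 901706). Here too the nearest protein-coding end, 325.5 bp away, belonged to another gene, AT4G02050, while the end of MCM7 was 762.5 bp away. With the ends of non-coding genes counted as well, this midpoint was at most 200 bp from an end. MCM7 also had an end peak of 106.2. The peak closest to the deep midpoint was 4524 bp away, so the end peak lay outside the far end of MCM7, within the 1000 bp allowed.

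Of the other hosts of the 20 highest deep peaks, 3 stood on lists of cell division genes. SYN1, the meiotic cohesin subunit also known as REC8, had a 946 bp peak with a score of 193.2 (chromosome 5, 1624142 to 1625087), 344 bp from an end of AT5G05480. CYCD1;1, a D-type cyclin of the family that drives the start of the cycle, had one of 167.4 (chromosome 1, 26442204 to 26443031), 390 bp from its own end. AUR2, an Aurora kinase of the mitotic spindle, had one of 93.5 (chromosome 2, 11036633 to 11037163), 404.5 bp from an end of AT2G25890 and 1293.5 bp from its own. These 3 and MCM7 were the 4 genes among the hosts of the 20 highest deep peaks that stood on 1 of 6 lists of cell division genes, and CALS1, a callose synthase known from the forming cell plate, was a host outside the lists, with 95.9.

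A second set among the 20 highest has roles outside cell division. EDS16, the isochorismate synthase that makes the precursor of the defence hormone salicylic acid, held a peak of 152.3 (chromosome 1, 28071327 to 28071834), 1286 bp from the closest end. MSS1, a hexose transporter also called STP13, held one of 145.3 (chromosome 5, 9244977 to 9245421) at a depth of 1801.5 bp, and SIP1, a raffinose synthase, one of 99.8 at 1957 bp. These 3 lay deepest of the 20. ERF5, an ethylene response factor, had a peak of 108.3 that spanned 1053 bp of a 1302 bp gene, and PUB19, a U-box ubiquitin ligase, one of 110.7. AT5G57130 and AT4G29920, the SMXL5 and SMXL4 genes with a role in phloem formation, had peaks of 172.1 and 96.8. The other hosts, named by locus, were AT2G02148 (166.1), AT1G18560 (148.6), AT5G66230 (130.1), AT1G66810 (111.9), AT2G46040 (92.8) and AT3G62110 (87.9). Of the 20 peaks 16 lay at most 500 bp from a gene end, and for 5 of them the closest end was that of another gene. The peaks of AT5G45700, JASON, SYN1, CYCD1;1, AT2G02148, AT1G18560, AT1G66810 and CALS1 reached over a gene end, so only their midpoints were deep. In 19 of the 20 cases the host had no other peak at its ends, as had 441 of all 568 hosts (77.6%).

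Cell division genes far more often had a peak at an end than a deep one. The 6 lists of these genes, and the comparison lists below, were chosen with earlier results of these data known. Their shares describe this list of peaks and test nothing. Of the 157 genes on the 6 lists that were over 400 bp long, and so could hold a deep peak, 13 did (8.28%, 95% Wilson interval 4.9 to 13.7%), against 2.13% of all 26638 such genes. In comparison 105 of the 157 (66.9%) had a peak at an end, against 11.4% of all genes. The comparison lists, genes for tubulin, actin and housekeeping enzymes and for the photosystems and Rubisco, had a deep peak in 6 of 49 (12.2%, 5.73 to 24.2%) and an end peak in 20 of 49 (40.8%). The share with a deep peak was thus above that of all genes in both kinds of list, and the intervals of the lists overlapped. A deep peak with a score of 30 or more was found in 7 of the 157 cell division genes (4.46%, 2.18 to 8.92%), against 0.353% of all genes over 400 bp. Among genes with a deep peak these were 7 of 13 on the cell division lists, 94 of all 568 hosts (16.5%) and 0 of 6 on the comparison lists. Taking 3 counts over the number of genes as the limit, not a Wilson interval, 0 of 6 allows a share of up to 50%. The median score was 33 over the 14 deep peaks of the cell division lists and 14.5 over the 8 of the comparison lists.

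By role, the G2/M and mitosis list had 2 of 40 genes with a deep peak, AUR2 and CCS52B (45.5), an activator of the anaphase-promoting complex. The cytokinesis list had 1 of 18: KNOLLE, the syntaxin of the cell plate, with a weak deep peak of 7.84 beside an end peak of 159.2. On the replication list MCM7 and TSO2, a small subunit of ribonucleotide reductase, were 2 of 32. TSO2 held 2 deep peaks, of 80.3 and 15.5. Among the MYB3R, E2F, RBR and DREAM regulators 2 of 19 had one, MYB3R1 (25.02) and the E2F-like repressor DEL1 (15.7). The list for endocycle genes, D-type cyclins and CDK inhibitors had 3 of 25, namely CYCD1;1, AT5G02420 (13.5) and CYCD4;1 (15.7, beside an end peak of 273.5). The cohesion and repair list also had 3, of 23, among them SYN1 and the cohesin subunit SMC1 (41.1). All 14 peaks lay between 216 and 431 bp from an end of any protein-coding gene. The count beyond 500 bp was 0, which allows a share of up to 21.4% by the same limit of 3 counts. Of all 629 deep peaks 260 (41.3%) lay beyond 500 bp. Ends of other genes count in this. From the closer end of their own gene the midpoints in AUR2, MCM7 and CCS52B were 1293.5, 762.5 and 529 bp away. With a limit of 300 bp in place of 200 bp 7 of the 13 genes were left. With the ends of non-coding genes counted too, 11 were left, without MCM7 and CCS52B. When the whole peak had to clear 200 bp 1 was left, CYCD4;1. That setting drops wide peaks more readily, and high-scoring deep peaks were wider. The median width of deep peaks was 538 bp at a score of 70 or more and 238 bp under 10.

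**Figure D3:**
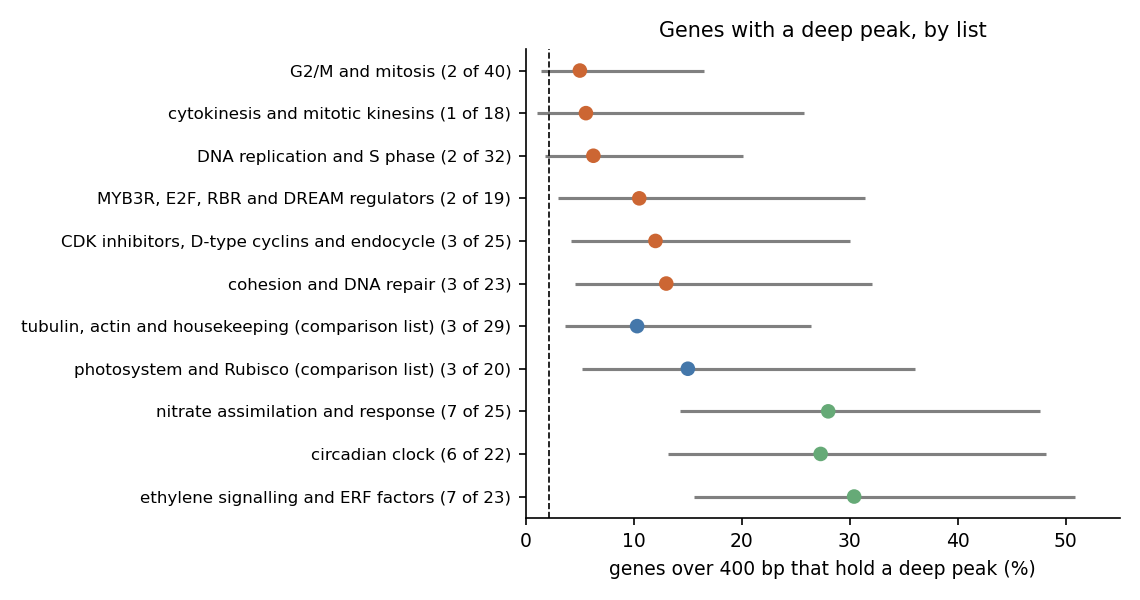
Share of genes over 400 bp that held a deep peak (%), by gene list, with 95% Wilson intervals as bars and the counts in the labels. Orange points are cell division lists, blue points comparison lists and green points lists drawn up after the host genes had been seen. The orange and blue lists were chosen with earlier results of these data known. The dashed line is the 2.13% of all genes over 400 bp, and the lists run from 5% to 30.4%.

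The comparison genes with a deep peak were UBQ10 (22.3), ACT8 (13.7) and GAPC2 (18.7, 8.92 and 7.04) on the housekeeping list and PSAF (18.6), RBCS1A (15.2) and LHCB2.1 (13.9) on the photosynthesis list. UBQ10 encodes ubiquitin in tandem copies, and ACT8, RBCS1A and LHCB2.1 belong to families with near-identical members. The treatment of reads with several matches is unknown here, and its effect on these or any other peaks was not tested.

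In total 568 genes held a deep peak. They were longer than the genes over 400 bp as a whole, with a median of 2570 bp against 2119 bp. The share of hosts went from 0.419% of genes of 400 to 1000 bp to 2.22% at 2000 to 3000 bp and 3.23% above 5000 bp. The rule asks for more than 200 bp to every gene end, so longer genes have more sequence that can qualify. The shares were not set against that amount, so they show no preference for long genes. In 441 hosts (77.6%) the deep peaks were the only ones; the other 127 also had a peak at or near an end. Of those 127, the end peak was the higher in 87 and the deep peak in 40, with median scores of 19 and 12.8. A single deep peak was found in 514 hosts, 2 in 43 and 3 or more in 11.

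Deep peaks more often had another peak, deep or not, close by than the rest of the list. Their median distance to the nearest peak was 6054 bp, against 9690 bp for peaks not deep and 6828 bp for those far from genes. Another peak was within 1000 bp, between midpoints, for 146 of the 629 (23.2%, 95% Wilson interval 20.08 to 26.67%), against 10.5% of all peaks and 7.08% of those not deep. For 88 of the 146 it was another deep peak of the same gene. A neighbour was present for 2 of the 30 deep peaks with a score of 70 or more (6.67%) and for 90 of the 344 under 15 (26.2%, near the 23.2% of all deep peaks). The contrast with other peaks was present at 500 bp (7.79% against 2.22%) and at 2000 bp (35.1% against 14.2%).

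The longest run was in LNK2, a coactivator of the circadian clock that works with RVE8-type MYB proteins. Its 5 deep peaks, in order from the lower coordinate, scored 42.8, 54.6, 30.7, 42.0 and 31.9 and covered 68% of the 3701 bp gene. Its relative LNK1 had 4, with 18.3, 27.7, 12.0 and 17.9, over 29.4% of the gene. Neither had another peak at its ends. NIA2, the main nitrate reductase of the plant, had peaks of 33.8, 18.1 and 5.36 over 59.9% of its length. AT4G32020 had 25.6, 16.8 and 29.96 over 60.9% of the gene, and AT5G25280 had 21.7, 12.2 and 24.6. The highest of these peaks, in LNK2, was below a score of 70.

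The other 6 genes with 3 deep peaks each, which are named here after their values were seen, were EBF1, NRT2.7, GAPC2, AT1G33600, BT2 and AT5G42050. EBF1 encodes an F-box protein that removes the ethylene regulator EIN3, NRT2.7 a nitrate transporter of the vacuole and BT2 a BTB protein of nitrogen responses. Across all 11 genes the 36 peaks scored from 5.36 to 54.6 with a median of 17.3. Where deep peaks less than 200 bp apart were joined, 2 of the 11 genes, LNK1 and EBF1, still had 3 or more.

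**Figure D4:**
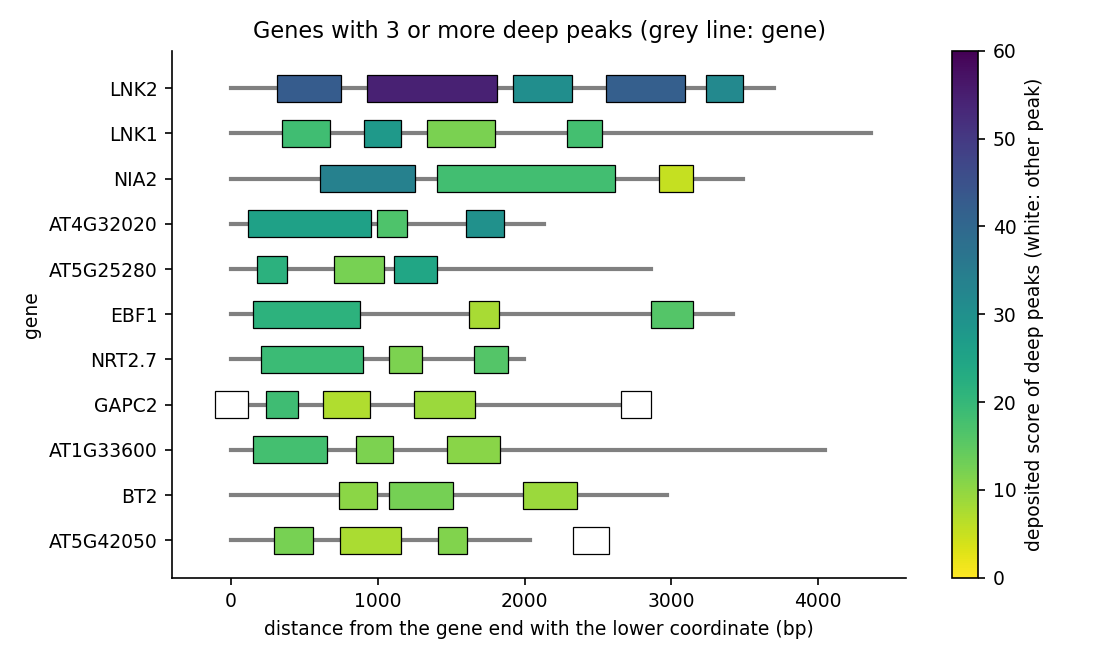
Position of peaks in the 11 genes with 3 or more deep peaks, in bp from the gene end with the lower coordinate (not the direction of transcription). Boxes are peaks, coloured by deposited score if deep and white if not; grey lines are the genes, and LNK2 carries 5 deep peaks over 68% of its length.

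A further group of deep peaks was broad for its score. Deep and other peaks had like median widths (277 bp over deep peaks, 275 bp over all), but 22 deep peaks (3.5%) were at least 600 bp wide with a score under 30, against 1.06% of all peaks and 9 of the 2302 peaks that were not deep. The 3 widest deep peaks were of this kind, while of the 7 that were 1000 bp or wider 2 scored above 30, those of AT5G45700 and ERF5. UBQ10 had one of 1495 bp with a score of 22.3, which covered 64.1% of the gene. GAE1, a UDP-glucuronate epimerase of pectin synthesis, had one of 1341 bp (21.4, 70.8% of the gene), and NIA2 one of 1212 bp (18.1, 34.8%). The next in width among those scoring under 30, named after their values were seen, were LBD41 (1164 bp, 71.5% of the gene), the ABC transporter PEN3 (1024 bp, 18%) and MYB7 (889 bp, 65.4%). The 22 included 3 more genes met above, AT4G32020, EBF1 and NRT2.7, and the photosystem gene PSAF. With a width of at least 500 bp and a score under 20 the contrast was smaller, with 22 deep peaks and 19 others.

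**Figure D5:**
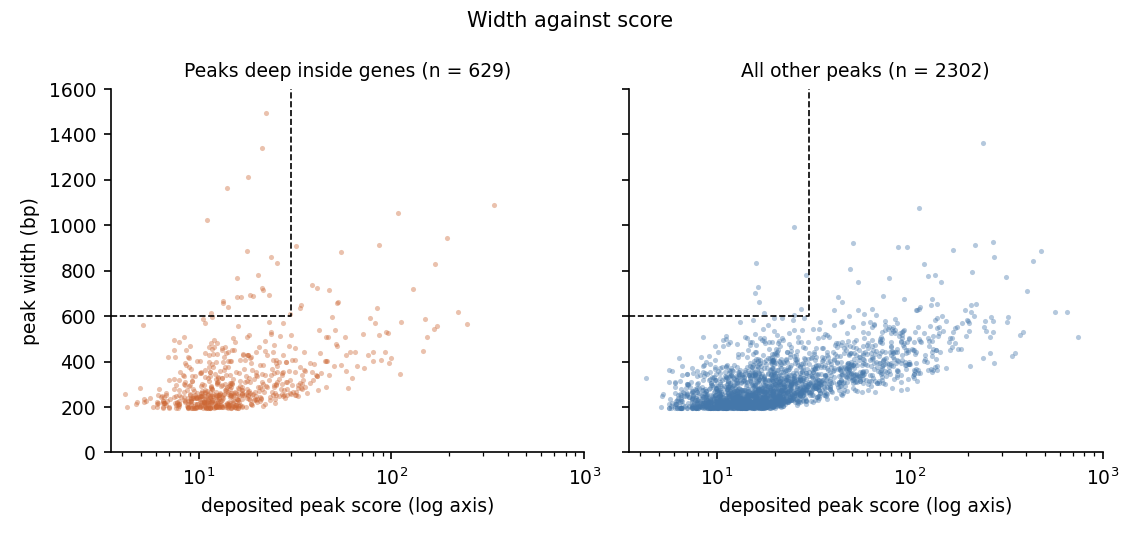
Width (bp) against deposited score (log axis) of each peak, for the 629 deep peaks on the left and the 2302 others on the right. The dashed corner holds peaks at least 600 bp wide with a score under 30, which number 22 among the deep peaks and 9 among the others.

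Lists of genes for nitrate assimilation and response, the circadian clock, and ethylene signalling with its ERF factors were drawn up after the hosts had been seen. They were picked for that reason, so their counts describe the list of hosts and support nothing. Deep peaks were found in 7 of 25 nitrate genes (28%, 95% Wilson interval 14.3 to 47.6%), 6 of 22 clock genes (27.3%, 13.2 to 48.2%) and 7 of 23 ethylene genes (30.4%, 15.6 to 50.9%). End peaks were at 12%, 31.8% and 30.4% of them. Their median scores were 12.3, 18.1 and 11.6, and 21 of their 40 deep peaks (52.5%) scored under 15, near the 54.7% of all deep peaks. Without peaks under that score the 20 genes became 10. More than 500 bp from an end lay 24 of the 40 (60%), beside 5 of the 8 deep peaks of the comparison lists (62.5%) and 41.3% of all deep peaks.

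Besides NIA2, NRT2.7 and BT2, the nitrate hosts were the second nitrate reductase NIA1 (10.8 and 10.7), the repressor LBD37 (15 and 4.74), AT1G25550 (14.9 and 12.2) and the bZIP factor TGA4, whose peak of 13.0 lay 3078.5 bp from the closest end. The clock hosts beside LNK1 and LNK2 were GRP7 (14.0 and 10.9) and GRP8 (15.2), which are close relatives that encode RNA-binding proteins, CCA1 (6.75), a central MYB-like clock repressor, and LNK4 (4.97). The ethylene hosts beside EBF1 and ERF5 were EBF2 (6.94), ERF4 (39.6 and 6.24), ERF104 (15.3), ERF2 (7.9) and ERF6 (6.6). Grouped only by the letters of their symbols, 58 groups of genes had at least 20 members over 400 bp, and 24 of them held no host. Shared letters do not show that the genes of a group are related. The ERF group had the highest share, 5 of 23 (21.7%, Wilson interval 9.66 to 41.9%), followed by HB with 5 of 37 (13.5%, 5.91 to 28%). Over all genes over 400 bp the share was 2.13%. Both groups were named because they ranked highest of the 58 on these same shares, so the values describe the list and support nothing.

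The extremes of the set were as follows. The deepest peak was 6803 bp from any gene end, in the 19695 bp gene AT1G58602, with a score of 22.0. PHOT1, the blue light receptor phototropin, held one of 45.8 at 3737.5 bp, close to the middle of its 7490 bp, and AT5G22090 one of 24.9 at 3181.5 bp. The lowest scores were those of AT5G09460 (4.13), AT4G05150 (4.24) and LBD37 (4.74). Just inside the 200 bp limit were THY-1 (201 bp, score 11.2), AT1G50660 (201 bp, 14.7) and AT3G06600 (202 bp, 64.5). Just outside it, all at 200 bp, were SD1-29 (46.8), AT1G05020 (17.5), AT4G25940 (7.83) and AT4G25090 (7.46).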

How the data were processed

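The labels describe 1 ChIP and 1 input library, and the deposited peak list of the ChIP library was used. The build was TAIR10, and MACS2 (no version), SAMtools 0.1.18 and Bowtie 0.12.7 are named, per the submitters' processing notes. The sources used here give neither the use of the input nor the calling threshold nor the read depth, so the precision of each score is unknown. The authors deposited a score per peak, with no formula in the sources used here, and start and end as other deposited values in bp. Starts were taken to count from 0, and printed coordinates count from 1. Summits were not used; the midpoint stood for the peak.

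Genes came from a RefSeq table of TAIR10.1 (27432 protein-coding genes on the 5 nuclear chromosomes), used for names, lengths and distances. As a check of the builds, 77.3% of midpoints lay within 500 bp of a gene end, against a median of 40.8% after shifts of 4000 to 5000 bp. A gene had an end peak if a peak that was not deep had its midpoint in the gene or at most 1000 bp outside. The 8 gene lists held 207 loci, all found, and the 3 later lists 71 loci, of which 70 were found as protein-coding. The members and lists were chosen with earlier results of these data known. Genes named are the hosts of the 20 highest, 3 deepest, 3 widest and 3 lowest deep peaks, list members with a deep peak, 5 genes with 3 or more deep peaks (by number, ties by highest score), and peaks next to the limit; others are marked, and 1 list member is not reported here by name. No p-value was computed, and the assignment of peaks was tested on simulated data. Motif shares and positions along the direction of transcription were planned and not run, since sequence and strand were not used here. Alternatives were other limits and score classes, whole peaks, ends of all gene types, and the higher-scoring peaks. Software was matplotlib 3.10.9, SciPy 1.17.1, NumPy 2.4.6, pandas 2.3.3 and Python 3.11.15.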

Additional observations from a re-analysis of the deposited data

How the results depend on the processing

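Of 45 alternatives, 17 left a value within 1.5 times (counts) or within its interval (medians and shares), and 28 moved it. The 629 deep peaks became 974 with a limit of 100 bp, 260 with 500 bp, 370 with the whole peak beyond 200 bp, 230 among the 1466 highest-scoring peaks and 106 among the highest 733. The 568 host genes became 901, 233, 335, 219 and 102 in the same order. The median score of 14.2 became 14.8 at 100 bp and 12.8 with whole peaks, and stayed below that of the remaining peaks at every limit tried (13.5 against 17.4 at 1000 bp). The median width of 277 bp became 258 bp with whole peaks, 358 bp among the highest 1466 and 406 bp among the highest 733. The share at a score of 70 or more, 4.77%, became 2.69% at 500 bp and 1.62% with whole peaks. Because high-scoring peaks were wider, the whole-peak setting also selects against high scores, so its lower values do not reflect depth alone. Among the 629 deep peaks 7.31% scored at least 50 and 2.23% at least 100, against 13.6% and 4.67% of all peaks. The 13 cell division genes became 26 at 100 bp, 7 at 300 bp and 0 at 500 bp. They became 1 with whole peaks, 11 with the ends of all gene types and 7 among the highest 733. Chosen after seeing the data were 5 alternatives: a score floor for the later lists (20 genes to 10), joined peaks (11 genes to 2), peak spacing (146 peaks to 49 at 500 bp and 221 at 2000 bp) and another class of wide peaks (22 in both). How a different calling threshold would move these values is unknown, and the alternatives on motifs and on position along the gene were not run. No paired analysis was possible because 1 ChIP library was used and no test was made.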
